A study of Mus musculus with 247 samples.

Results

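Solute carriers are membrane proteins that move amino acids, sugars, metals, inorganic ions, nucleosides, vitamins and metabolic intermediates across cell and organelle membranes, and they are numbered by family. Their genes were taken from the RNA-seq table of RAW264.7 cells, a mouse macrophage line, as symbols beginning with Slc and a digit, with 7 transporters left out and a mean of at least 20 reads per 10000000 mapped reads over all 16 libraries. The rule gave 175 genes of the 14378 in the table. They were the 175 above that mean out of 254 such symbols, with 79 below it, and fell into 41 families, of which 8 held a single gene and 13 held 4 or more.

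The groups were GPS2 knockout (KO) cells with lipopolysaccharide (LPS, 10 ng/ml for 6 h), wild-type (WT) cells with LPS, untreated GPS2 KO cells and untreated WT cells, with 4 poly(A) RNA-seq libraries each. GPS2 is a subunit of the corepressor complex that holds nuclear receptor and inflammatory genes down in macrophages, and the knockout was made by CRISPR. The labels name no separate knockout clones, so the KO groups may stem from 1 line, and nothing states that the replicates were separate cultures, so p-values measure the spread between these libraries only. Chromatin data came from the same line: ATAC-seq of untreated KO and control cells (3 libraries each), and ChIP-seq of the macrophage factor PU.1, the AP-1 subunit JunB, the coactivator subunit MED1 and RNA polymerase II, with LPS for 2 h where it was given.

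In macrophages, solute carriers feed activated cells with amino acids, control metal supply inside phagosomes and lysosomes, and connect the mitochondrial matrix with the cytosol. Amino acid carriers of the SLC1, SLC6, SLC7 and SLC38 families sit at the plasma membrane or the lysosome. The SLC11, SLC30, SLC31 and SLC39 families carry iron, manganese, zinc and copper, and the SLC25 family lines the inner mitochondrial membrane.

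Promoters of 4 genes whose RNA or promoter occupancy carries much of what follows are shown as 300 bases, from 250 before to 50 after the annotated start, 5′ to 3′ on the gene's strand, read from the NCBIM37 (mm9) assembly. Slc1a4 is at chr11:20232667-20232966 on the minus strand, Slc38a7 at chr8:98377342-98377641 on the minus strand, Slc15a3 at chr19:10916784-10917083 on the plus strand and Slc39a14 at chr14:70751182-70751481 on the minus strand. Capitals mark a C/EBP-ATF match (TGATGCAA, here on the opposite strand) in Slc1a4 and matches to PU.1 (GAGGAAG), AP-1 (TGANTCA) and the E-box (CACGTG), in that order, in Slc38a7. In Slc15a3 they mark an interferon-stimulated response element (ISRE, GAAANNGAA), a metal response match (TGCNCNC, opposite strand) and PU.1, and in Slc39a14 AP-1 and the E-box.
Slc1a4: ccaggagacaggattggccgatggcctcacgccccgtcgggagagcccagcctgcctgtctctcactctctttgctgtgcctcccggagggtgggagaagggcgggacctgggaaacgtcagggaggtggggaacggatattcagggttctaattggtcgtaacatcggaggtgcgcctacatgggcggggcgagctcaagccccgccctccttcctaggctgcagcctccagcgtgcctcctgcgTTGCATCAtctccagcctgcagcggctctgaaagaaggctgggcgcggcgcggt
Slc38a7: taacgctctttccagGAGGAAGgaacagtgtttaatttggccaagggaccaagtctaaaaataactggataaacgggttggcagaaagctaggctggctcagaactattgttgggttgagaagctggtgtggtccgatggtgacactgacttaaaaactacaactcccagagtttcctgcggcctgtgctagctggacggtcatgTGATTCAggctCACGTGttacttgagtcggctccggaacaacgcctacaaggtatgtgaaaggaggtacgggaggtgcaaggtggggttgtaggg
Slc15a3: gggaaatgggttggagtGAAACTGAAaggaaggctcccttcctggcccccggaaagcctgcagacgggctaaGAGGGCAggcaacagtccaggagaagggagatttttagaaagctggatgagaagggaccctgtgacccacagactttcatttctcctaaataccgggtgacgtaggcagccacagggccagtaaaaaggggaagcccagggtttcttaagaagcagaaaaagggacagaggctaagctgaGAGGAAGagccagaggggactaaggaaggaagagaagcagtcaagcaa
Slc39a14: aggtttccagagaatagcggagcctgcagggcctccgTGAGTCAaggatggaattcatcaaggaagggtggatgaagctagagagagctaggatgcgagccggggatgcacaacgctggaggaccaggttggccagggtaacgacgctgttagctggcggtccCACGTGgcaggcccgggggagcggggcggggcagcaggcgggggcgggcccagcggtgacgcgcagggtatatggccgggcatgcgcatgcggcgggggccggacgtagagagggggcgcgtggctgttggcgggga
These 4 were chosen for the sizes of their RNA changes and the matches they hold, after their values were seen.

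Levels below are reads per 10000000 mapped reads divided by a library factor (TMM), and log2 changes are on the scale of log2(level + 1), with ± giving the standard error. Genes were called at a Benjamini-Hochberg adjusted p under 0.05 in a limma fit over 11791 genes. All 175 solute carrier genes were among those tested. Mapped reads per RNA library ran between 12094940 and 22968591. Gps2 itself read 132, 135, 130 and 133 in untreated KO cells, against 458, 436, 426 and 415 in untreated WT cells. With LPS it read 76.9, 90.3, 98.5 and 95.6 in KO cells, against 420, 424, 422 and 496 in WT cells. Every KO library was below every WT library, and reads remained in the KO. The labels do not say which part of the gene was removed. All 8 macrophage markers were in the table, and their summed level was 105200 to 111800 in untreated KO cells and 74300 to 82480 in untreated WT cells, and 71440 to 75790 in KO cells with LPS and 49460 to 59960 in WT cells with LPS. Of the T cell, B cell, fibroblast, granulocyte and dendritic cell lists 1 marker each was in the table; the level reached at most 1.44 for the first 3, 20.2 for the granulocyte and 13.7 for the dendritic cell marker. None of the 4 epithelial markers was in the table.

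One library stood apart. Replicate 4 of WT cells with LPS differed from the mean of its group by a median of 0.495 (log2) over all genes and 0.379 over the solute carrier genes, against 0.112 to 0.238 over all genes for the other WT libraries with LPS. Over genes, its deviation correlated with transcript length at r = -0.643, and those of the other 3 at r = 0.384 to 0.598. Leaving it out changed 0 calls of the members in direction. It added 37 calls and ended 0 for KO against WT untreated, through the shared estimate of the spread, and added 30 and ended 2 for KO against WT with LPS (Slc1a4 and Slc16a7). It added 19 and ended 0 for LPS in KO cells, added 11 and ended 3 for LPS in WT cells (Slc22a5, Slc33a1 and Slc39a13), and added 35 and ended 0 for the difference between the 2 LPS responses.

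The members were chosen by their mean over all groups, so 158 of them were at 20 or more in each of the 4 groups, 17 were below 20 in some group and 0 were at 20 or more in 1 group only. Among the 17 were Slc6a4, Slc28a2, Slc9b2, Slc7a4 and Slc7a14. Their mean was carried by the groups in which they are high, so the rule itself leans towards large differences in them. Just outside the rule were Slc26a9 (18.8), Slc39a2 (19.6) and Slc12a5 (19.6), and just inside were Slc9a9 (20.4), Slc25a47 (22.8) and Slc7a14 (23). Slc40a1, the iron exporter ferroportin, had a mean of 10.5 and is not among the members. Of the 175 symbols, 4 do not name a transporter: Slc4a1ap, Slc7a6os, the scaffold protein gene Slc9a3r1 and the pseudogene Slc2a4rg-ps. Classes and families go by family number, so the counts of carriers below include these 4. Slc7a6os is counted with the amino acid class, Slc4a1ap and Slc9a3r1 with inorganic ions and Slc2a4rg-ps with sugars. Per kilobase of transcript the levels spanned 2.27 to 4126, with a median of 99.9.

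Mitochondrial carriers held the highest levels. Slc25a3, the phosphate carrier, averaged 4126 per kilobase over the 16 libraries and Slc25a5, an ADP/ATP carrier, 3877. Both have near-identical gene copies, so their reads are uncertain in origin. Among the other classes the highest gene per kilobase was the betaine and GABA transporter Slc6a12 (1411) for amino acids and related solutes, the zinc transporter Slc39a7 (787) for metals, and Slc35b1 (649), which carries nucleotides into the endoplasmic reticulum, for sugars and nucleotide sugars. The fatty acid transport protein gene Slc27a1 (599), the phosphate transporter Slc20a1 (583), the reduced folate carrier Slc19a1 (419) and the haem transporter Slc48a1 (167) headed the remaining classes. Exons of Slc39a7 share 80.1% of their bases with another annotated gene, and the counting is not known to use strand.

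In untreated cells, 48 solute carrier genes were higher in GPS2 KO than in WT (27.4% of members, against 18% of all genes tested) and 29 were lower (16.6%, against 17.5% of all genes tested). Among all tested genes with a mean of 20 or more the shares were 18.1% and 17.8%. The median log2 difference was 0.044 over members and 0.008 over all genes. Among amino acid carriers, 17 of 27 genes were higher in the KO and 2 were lower, with a class median of 0.495, so the class held 17 of the 48 higher members. Their summed level was 37310 ± 65.8 in untreated KO cells and 29350 ± 1245 in untreated WT cells (SD, n = 4 each). By family, 5 of 6 SLC38 members, 4 of 6 SLC6 members and 4 of 7 SLC7 members were higher, and 0 were lower. The rule left out Slc7a11, Slc7a5 and Slc7a2, so the SLC7 count does not cover the whole family. Of these, Slc7a11 (3.11) and Slc7a5 (0.87) were higher in untreated KO cells. Slc7a2 was lower (-1.18), at mean levels of 0.268 in untreated KO and 1.92 in untreated WT cells. Sugar carriers (7 higher, 4 lower of 35), mitochondrial carriers (6 and 7 of 36), metal carriers (5 and 4 of 22), inorganic ion carriers (7 and 6 of 25), nucleoside and vitamin carriers (4 and 4 of 12) and organic ion carriers (2 and 2 of 16) were more evenly split. Without replicate 4 of WT cells with LPS, which enters the shared estimate of the spread, 70 members were higher and 44 lower, against 30.1% and 29% of all genes, and the amino acid class had 18 higher and 3 lower.

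**Figure D1:**
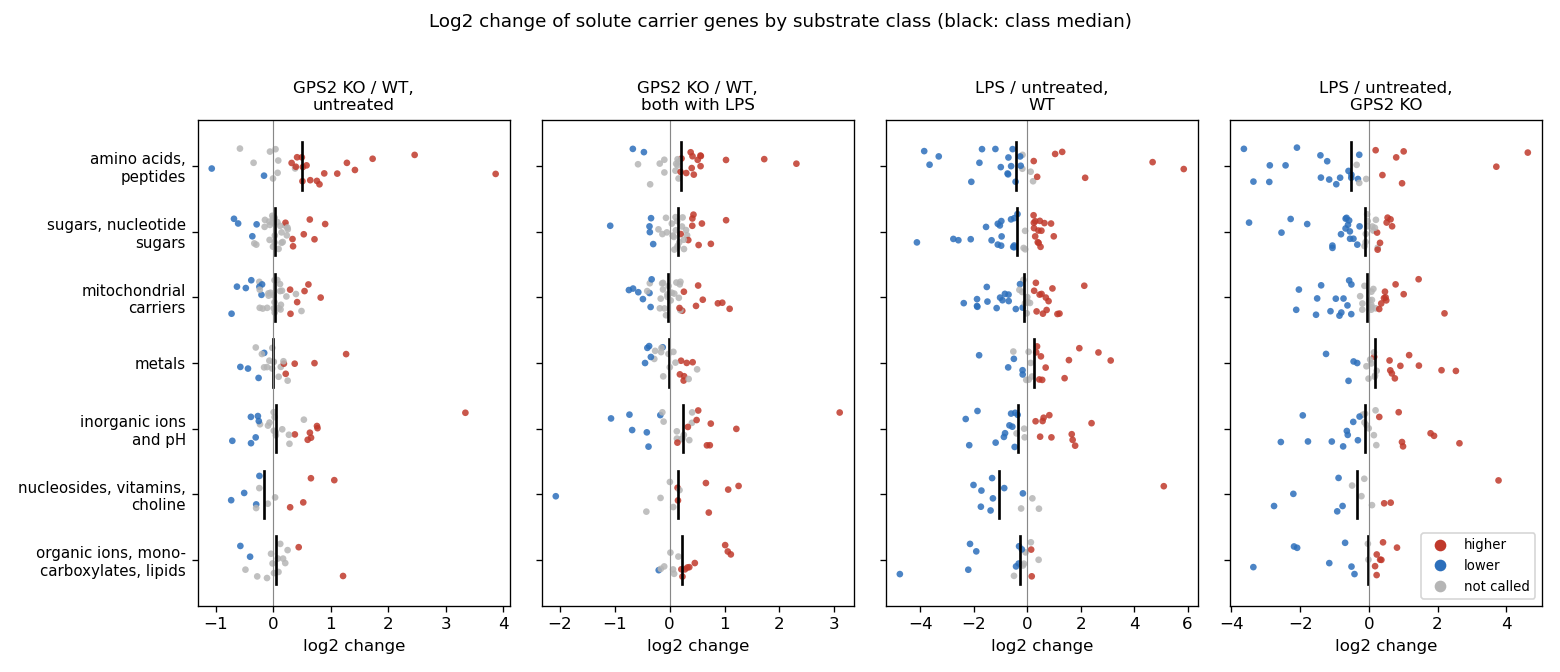
Log2 change (horizontal axis) of the solute carrier genes in 7 substrate classes (vertical axis) in 4 comparisons, 1 point a gene, coloured by call, with the class median as a black bar; the 2 genes of no class are left out. In untreated cells the amino acid class has a median of 0.495 for KO against WT, while the other classes have medians between -0.17 and 0.044.

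Slc1a4 encodes ASCT1, an exchanger of alanine, serine, cysteine and threonine, and lies at chr11:20202183-20232716 (minus strand). It read 524, 566, 551 and 515 in untreated KO cells, against 99.9, 100, 102 and 87.3 in untreated WT cells. The groups were far apart, and the log2 difference was 2.46 ± 0.12 (limma, Benjamini-Hochberg adjusted p = 1.4e-10). With LPS the same gene read 64.5, 79.4, 70.7 and 74.6 in KO cells, against 66.0, 64.1, 62.9 and 43.05 in WT cells, and the groups overlapped. The difference with LPS was 0.30 ± 0.12 (adjusted p = 0.045), and without replicate 4 of WT cells with LPS it was 0.16 (adjusted p = 0.088), which ended the call.

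Slc38a7, a lysosomal glutamine carrier at chr8:98359823-98377391, read 965, 1017, 989 and 1004 in untreated KO cells, against 365, 373, 374 and 371 in untreated WT cells. The difference was 1.42 ± 0.13 (adjusted p = 2.8e-07), with no overlap. With LPS the groups overlapped and differed by 0.38 ± 0.13 (adjusted p = 0.022), and by 0.21 without replicate 4 of WT cells, and the call was lost without KO replicate 3 or 4. Slc6a8, the creatine transporter, read 477, 490, 413 and 432 in untreated KO cells, against 121, 139, 137 and 147 in untreated WT cells (1.73 ± 0.10, adjusted p = 1e-09). With LPS it averaged 170 ± 6.55 in KO cells and 83.3 ± 12.2 in WT cells (SD, n = 4 each), so it was higher in the KO in both arms. Slc7a7, the light chain of a cationic amino acid exchanger, read 120, 103, 96.96 and 117 in untreated KO cells, against 48.2, 47.2, 46.9 and 35.9 in untreated WT cells (1.28 ± 0.14, adjusted p = 2.9e-06). With LPS its groups overlapped, at 190 ± 5.69 in KO cells and 207 ± 43.8 in WT cells. The overlap came from replicate 4 of WT cells with LPS, which read 145, and without it Slc7a7 was called lower in KO cells with LPS (-0.26, adjusted p = 0.030), in the direction opposite to that in untreated cells. Exons of Slc7a7 share 9.96% of their bases with Oxa1l on the other strand.

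Slc6a9, the glycine transporter GLYT1, differed in opposite directions in the 2 arms. It read 559, 536, 548 and 544 in untreated KO cells, against 259, 231, 257 and 264 in untreated WT cells (1.11 ± 0.10, adjusted p = 3.6e-07). With LPS it read 48.9, 52.3, 50.4 and 58.3 in KO cells, against 86.8, 80.5, 67.8 and 58.9 in WT cells (-0.47 ± 0.10, adjusted p = 0.0016). Neither pair of groups overlapped, although with LPS the gap between KO replicate 4 and WT replicate 4 was small. Exons of Slc6a9 share 27.8% of their bases with Ccdc24, whose mean value was 15.35.

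Further amino acid carriers were higher in untreated KO cells by smaller amounts. The cationic amino acid transporter Slc7a1 averaged 3290 ± 15.2 in KO cells and 1890 ± 135 in WT cells (0.80 ± 0.14, adjusted p = 0.00042). The glutamine carriers Slc38a2 and Slc1a5 were higher by 0.50 ± 0.11 (adjusted p = 0.002) and 0.32 ± 0.08 (adjusted p = 0.004). The difference of Slc38a1 was 0.39 ± 0.14 (adjusted p = 0.042) and lost its call under 16 of the alternatives run, among them the omission of any 1 untreated library. Slc38a9, the lysosomal arginine sensor of the mTORC1 pathway, was higher by 0.58 ± 0.08 (adjusted p = 2.5e-05), and Slc7a8, which carries large and small neutral amino acids, by 0.51 ± 0.13 (adjusted p = 0.0059). In the other direction lay Slc43a2, a facilitator of branched-chain amino acids and phenylalanine. It read 680, 712, 701 and 721 in untreated KO cells, against 1387, 1461, 1528 and 1550 in untreated WT cells (-1.07 ± 0.13, adjusted p = 8.9e-06).

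**Figure D2:**
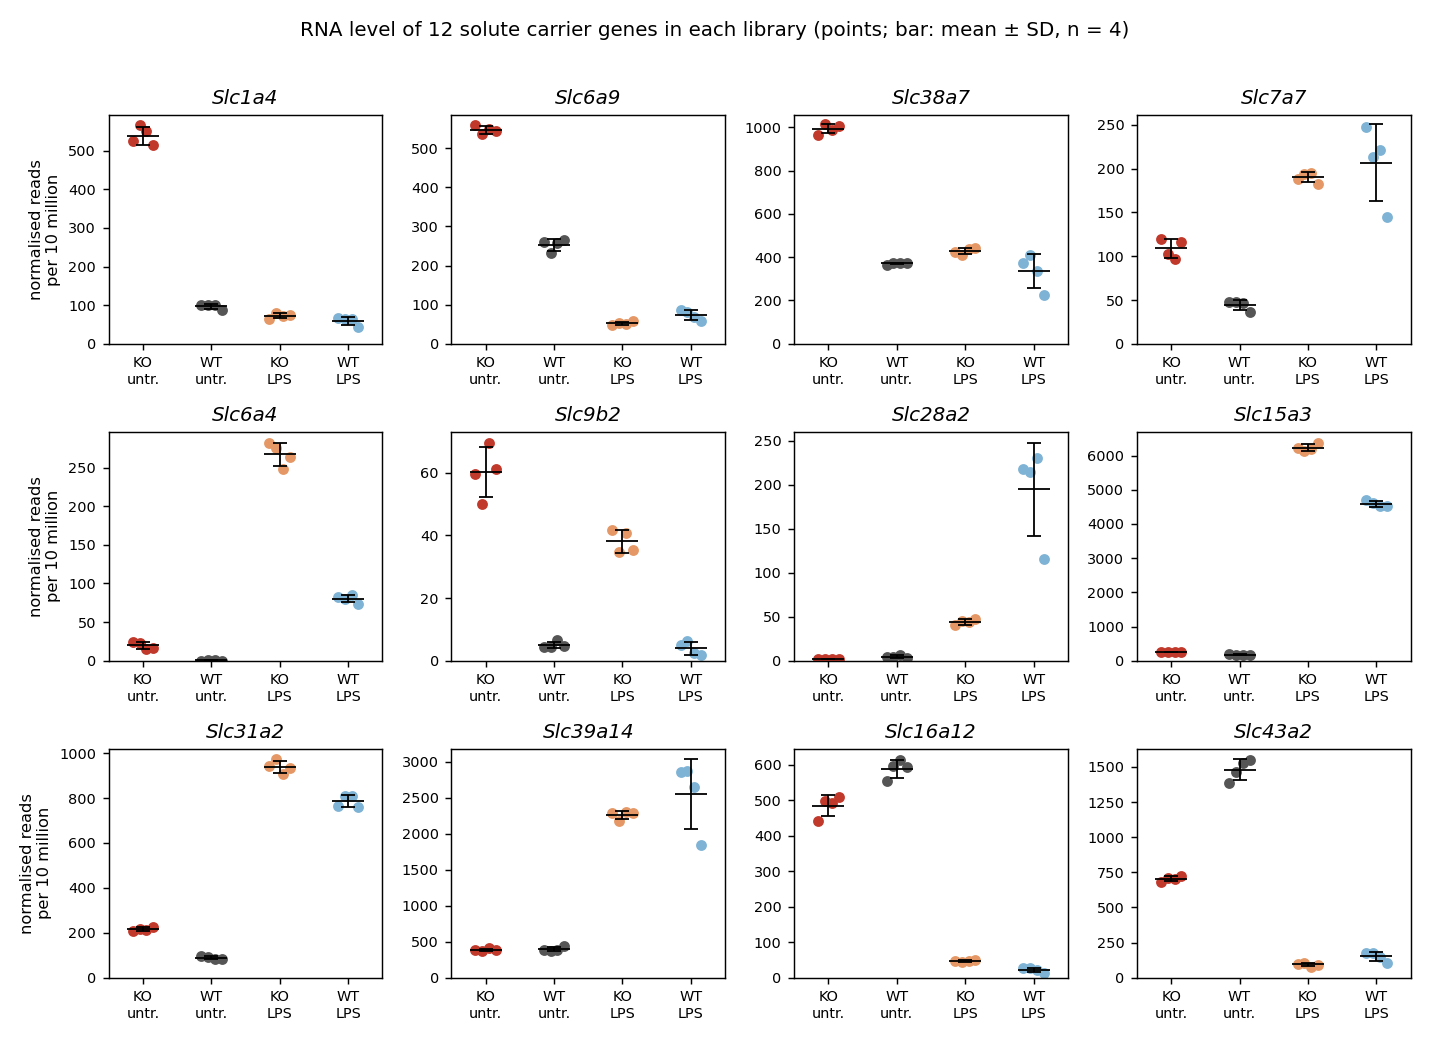
Normalised reads per 10000000 (vertical axis) of 12 solute carrier genes in the 4 libraries of each group (points), with the mean and SD as bars. Slc1a4, Slc6a9 and Slc38a7 are highest in untreated KO cells, Slc15a3 and Slc31a2 are highest with LPS in both genotypes, and replicate 4 is the lowest of the WT libraries with LPS for Slc28a2 (116), Slc39a14 (1835) and Slc38a7 (226).

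Another 2 genes stood at low levels in untreated WT cells and were higher in the KO. Slc9b2, a sodium/proton exchanger, read 59.5, 50.1, 69.6 and 61.2 in untreated KO cells, against 4.43, 4.39, 6.64 and 4.75 in untreated WT cells (3.34 ± 0.25, adjusted p = 4e-08). With LPS it read 41.7, 34.6, 40.6 and 35.4 in KO cells, against 5.08, 6.41, 2.48 and 1.76 in WT cells (3.10 ± 0.25, adjusted p = 1.1e-07). The libraries were apart in both arms, with 44 reads in all 4 untreated WT libraries and 492 in the KO ones. Slc6a4, the serotonin transporter, which moves a monoamine and is in the amino acid class by its family, read 24.1, 22.8, 15.4 and 16.8 in untreated KO cells, against 0, 1.097, 0.8292 and 0 in untreated WT cells. That rests on 163 reads in KO and 4 in WT, so its log2 difference of 3.87 ± 0.22 depends on the pseudocount. With LPS it read 281, 276, 248 and 264 in KO cells, against 82.3, 80.5, 84.7 and 73.8 in WT cells (1.72 ± 0.22, adjusted p = 1.4e-05).

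Several metal, sugar and ion carriers were also higher in untreated KO cells. Slc31a2, a copper transporter-like protein of endosomes, read 209, 216, 211 and 227 in untreated KO cells, against 95.0, 92.7, 85.01 and 84.3 in untreated WT cells (1.27 ± 0.06, adjusted p = 7e-11). Slc11a1, the phagosomal iron and manganese transporter NRAMP1, read 957, 976, 949 and 1011 in untreated KO cells, against 619, 571, 588 and 590 in untreated WT cells (0.72 ± 0.07, adjusted p = 1.1e-06). With LPS Slc11a1 read 1769 to 1928 in KO cells and 1455 to 1879 in WT cells, which overlapped. The hexose transporter Slc2a6 was higher by 0.90 ± 0.11 (adjusted p = 8.8e-06), the sugar phosphate exchanger Slc37a2 by 0.72 ± 0.05 (adjusted p = 1.5e-08) and the phosphate transporter Slc20a1 by 0.66 ± 0.07 (adjusted p = 1.1e-06). Slc46a3, a lysosomal carrier, averaged 65.8 ± 2.97 in untreated KO cells and 31.4 ± 5.81 in untreated WT cells (1.06 ± 0.20, adjusted p = 0.00066).

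Lower in untreated KO cells were carriers of several classes. The mitochondrial glutamate carrier Slc25a22 averaged 313 ± 12.1 in KO cells and 486 ± 16.4 in WT cells (-0.63 ± 0.05, adjusted p = 3.4e-08), and the citrate carrier Slc25a1 averaged 799.8 ± 32.8 in KO cells and 1115 ± 28.9 in WT cells (-0.48 ± 0.07, adjusted p = 4.2e-05). The calcium-dependent ATP-magnesium/phosphate carrier Slc25a23 was lower by 0.73 ± 0.23 on the log2 scale (adjusted p = 0.025), a call lost without KO replicate 3, WT replicate 3 or WT replicate 4. Slc9a3r1, the scaffold protein gene, had a difference of -0.71 ± 0.09 (adjusted p = 1e-05), Slc35e4 one of -0.69 ± 0.06 (adjusted p = 4.5e-07) and the aromatic amino acid transporter Slc16a10 one of -0.57 ± 0.06 (adjusted p = 2.8e-06). Slc28a2, a purine nucleoside transporter, averaged 2.29 ± 0.20 in KO cells and 4.59 ± 1.42 in WT cells, on 19 and 40 reads in all. Its difference of -0.73 ± 0.21 (adjusted p = 0.011) lost its call with a pseudocount of 5 and in a fit with voom weights on recovered reads.

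With LPS in both genotypes, 63 solute carrier genes were higher in KO than in WT cells (36% of members, against 22.1% of all genes tested) and 27 were lower (15.4%, against 22.1% of all genes tested). Among tested genes at 20 or more the shares were 22.8% and 22.5%. The median difference was 0.146 over members and 0.001 over all genes. The higher genes included 14 of 27 amino acid carriers, 9 of 16 organic ion and monocarboxylate carriers, 6 of 12 nucleoside and vitamin carriers, 9 of 25 inorganic ion carriers and 9 of 35 sugar carriers. These classes had 2, 1, 1, 6 and 5 lower genes, in that order, while metal carriers had 6 higher and 5 lower of 22 and mitochondrial carriers 9 and 7 of 36. Without replicate 4 of WT cells with LPS the counts were 74 higher and 44 lower, against 28.7% and 29% of all genes, with 13 higher and 6 lower in the amino acid class and 6 and 10 in the metal class. When the fit held only the 2 LPS groups, 34 were higher. The share of all genes called higher in that fit is not given, so the 34 cannot be set against it.

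Slc19a2, a thiamine transporter, read 231, 234, 237 and 215 in KO cells with LPS, against 84.3, 104, 102 and 93.1 in WT cells with LPS (1.26 ± 0.08, adjusted p = 4.9e-09). Slc37a2 read 324, 336, 338 and 314 in KO cells with LPS, against 167, 165, 160 and 149 in WT cells with LPS (1.03 ± 0.05, adjusted p = 2.5e-10). Both pairs of groups were far apart. Slc20a1 read 3673, 3706, 3727 and 3737 in KO cells with LPS, against 2365, 2365, 2253 and 1878 in WT cells with LPS (0.75 ± 0.07, adjusted p = 2.4e-07). Slc7a4, a cationic transporter-like protein, read 11.1, 12.2, 12.0 and 13.4 in KO cells with LPS, against 2.54, 0.712, 1.98 and 1.76 in WT cells with LPS, on 65 and 12 reads in all (2.31 ± 0.18, adjusted p = 7.3e-08). The monocarboxylate transporter family member Slc16a12 averaged 46.3 ± 2.19 in KO cells with LPS and 21.7 ± 6.76 in WT cells with LPS (1.11 ± 0.17, adjusted p = 7.5e-05).

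Slc28a2 had the largest fall among the members called lower in the KO with LPS. It read 40.4, 44.8, 43.6 and 47.8 in KO cells with LPS, against 218, 214, 231 and 116 in WT cells with LPS (-2.07 ± 0.21, adjusted p = 9.3e-07). All 4 KO libraries were below the lowest WT library. Slc35f6, a transporter-like protein of lysosome and mitochondria, read 266, 290, 291 and 274 in KO cells with LPS, against 624, 579, 624 and 548 in WT cells with LPS (-1.08 ± 0.06, adjusted p = 1.3e-09). Slc12a9, a cation-chloride cotransporter family member, read 395, 400, 404 and 455 in KO cells with LPS, against 916, 811, 801 and 938 in WT cells with LPS (-1.06 ± 0.08, adjusted p = 3.3e-08). Their groups did not overlap. In untreated cells Slc35f6 was not called (adjusted p = 0.083, and 0.14 with adjusted p = 0.019 without replicate 4 of WT cells with LPS) and Slc12a9 was lower in the KO (-0.39 ± 0.08, adjusted p = 0.0011). The mitochondrial iron carrier Slc25a28 (-0.74 ± 0.09, adjusted p = 1.4e-05) and the anion exchanger Slc4a2 (-0.73 ± 0.11, adjusted p = 6.5e-05, 11.2% of its exon bases shared with Fastk) were also lower. In all, 29 members were higher in the KO in both arms and 14 were lower in both, and 45 and 22 without replicate 4 of WT cells with LPS. The shares of all genes with these patterns were not computed, so the counts are no result about the members.

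LPS changed most solute carrier genes in each genotype, and falls outnumbered rises. In KO cells 51 rose (29.1% of members, against 31.5% of all genes tested) and 76 fell (43.4%, against 36.1%). In WT cells 58 rose (33.1%, against 34.2%) and 84 fell (48%, against 36.2%). The median change was -0.125 over members and -0.048 over all genes in KO cells, and -0.171 and -0.024 in WT cells. Changes of at least 2-fold were found in 27.4% of members and 24.9% of all genes in KO cells, and in 33.7% and 27.6% in WT cells. Without the TMM factor the median of all genes shifted by -0.389 in KO and by -0.465 in WT cells, and 26 members rose in KO cells and 24 in WT cells. The changes given here are relative to that centring, and the shares of all genes that rose without the factor are not given.

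By class, metal carriers rose more often than they fell, with 10 rises and 4 falls of 22 in KO cells (median 0.176) and 11 and 5 in WT cells (median 0.263). Without the TMM factor the counts were 9 and 8 in KO cells and 5 and 9 in WT cells. The summed level of metal carriers was 18730 ± 112 in KO cells with LPS and 12340 ± 11.2 in untreated KO cells, and 19130 ± 1478 in WT cells with LPS and 12070 ± 307 in untreated WT cells (SD, n = 4 each). Amino acid carriers fell more often, with 7 rises and 17 falls of 27 in KO cells and 7 and 16 in WT cells. Nucleoside and vitamin carriers had 3 rises and 5 falls of 12 in KO cells (median -0.351) and 1 and 8 in WT cells (median -1.066). Sugar carriers had 7 rises and 17 falls of 35 in KO cells and 14 and 18 in WT cells, and mitochondrial carriers 10 and 14 of 36 in KO cells and 13 and 15 in WT cells. Inorganic ion carriers had 7 rises and 10 falls of 25 in KO cells and 10 and 12 in WT cells, and organic ion carriers 7 and 7 of 16 in KO cells and 2 and 8 in WT cells.

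Slc15a3, which exports histidine, dipeptides and bacterial muramyl dipeptide from lysosomes, rose strongly in both genotypes. It read 6211, 6143, 6193 and 6381 in KO cells with LPS, against 244, 260, 245 and 254 in untreated KO cells, a change of 4.63 ± 0.05 (adjusted p = 2.8e-19). In WT cells it read 4716, 4613, 4513 and 4515 with LPS, against 189, 170, 167 and 180 untreated, a change of 4.69 ± 0.05 (adjusted p = 2.5e-19). The KO was above WT in both arms (0.51 ± 0.05 untreated and 0.44 ± 0.05 with LPS), and the 2 LPS responses differed by -0.06 ± 0.07 (adjusted p = 0.58). Exons of Slc15a3 share 28.1% of their bases with Tmem132a on the other strand.

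Several metal importers rose in both genotypes, while the SLC39 family as a whole was split, with 4 rises and 1 fall of 9 in KO cells and 3 and 3 in WT cells. The zinc and iron importer Slc39a14 (ZIP14) read 2281, 2179, 2298 and 2285 in KO cells with LPS, against 388, 375, 407 and 387 in untreated KO cells (2.54 ± 0.11). In WT cells it read 2861, 2868, 2648 and 1835 with LPS, against 386, 370, 391 and 434 untreated (2.67 ± 0.11). Slc31a2 rose by 2.12 ± 0.06 in KO cells, to 941, 975, 907 and 936, and by 3.13 ± 0.06 in WT cells, to 767, 811, 808 and 761. In each case the LPS libraries were all above the untreated ones. Slc11a2 (DMT1), the divalent metal transporter, rose by 1.46 ± 0.06 in KO and 1.95 ± 0.06 in WT cells, and Slc11a1 by 0.92 ± 0.07 in KO and 1.56 ± 0.07 in WT cells. The zinc importer Slc39a1 rose by 1.17 ± 0.06 in KO and 1.40 ± 0.06 in WT cells, and the mitochondrial iron importer Slc25a37 (mitoferrin-1) by 0.78 ± 0.06 in KO and 1.14 ± 0.06 in WT cells. The highest adjusted p among these was 1.3e-08 in limma with Benjamini-Hochberg adjustment, for Slc11a1 in KO cells.

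Among ion and mitochondrial carriers, the sodium bicarbonate cotransporter Slc4a7 averaged 3766 ± 49.8 in KO cells with LPS and 604 ± 14.7 in untreated KO cells (2.64 ± 0.12), and 3257 ± 681 in WT cells with LPS and 604 ± 69.6 in untreated WT cells (2.41 ± 0.12). Slc25a22 rose by 2.20 ± 0.05 in KO and 2.14 ± 0.05 in WT cells, and Slc20a1 by 1.80 ± 0.07 in KO and 1.70 ± 0.07 in WT cells. Slc28a2 rose by 3.78 ± 0.21 in KO cells and 5.11 ± 0.21 in WT cells, in which it read 3.46 to 6.64 untreated. Slc6a4 rose by 3.71 ± 0.22 in KO cells and, on 530 reads with LPS and 4 without, by 5.86 ± 0.22 in WT cells.

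Several deep falls with LPS were found in both genotypes. Slc16a12 read 46.3, 43.4, 46.6 and 48.8 in KO cells with LPS, against 442, 498, 492 and 509 in untreated KO cells (-3.36 ± 0.17). In WT cells it read 26.9, 26.3, 21.3 and 12.3 with LPS, against 554, 596, 615 and 594 untreated (-4.76 ± 0.17). Slc5a3, the sodium/myo-inositol cotransporter, read 97.7, 116, 111 and 114 in KO cells with LPS, against 1184, 1241, 1275 and 1245 in untreated KO cells (-3.49 ± 0.14), and fell by 4.12 ± 0.14 on the log2 scale in WT cells. Slc5a3 shares 6.38% of its exon bases with Mrps6 on the same strand. Slc43a2 changed by -2.90 ± 0.13 in KO and -3.30 ± 0.13 in WT cells, and the glucose transporter Slc2a8 by -2.28 ± 0.13 in KO and -2.76 ± 0.13 in WT cells. Slc7a4 changed by -2.42 ± 0.18 in KO and -3.85 ± 0.18 in WT cells, and Slc7a14, a lysosomal carrier-like protein, by -3.64 ± 0.37 in KO and -3.65 ± 0.37 in WT cells, with 8 and 21 reads over the 4 libraries with LPS. Slc37a2 changed by -1.79 ± 0.05 in KO and -2.11 ± 0.05 in WT cells, and Slc6a12, the transporter with the highest level per kilobase among amino acid carriers, by -1.40 ± 0.06 in KO and -1.18 ± 0.06 in WT cells. Among the 6 deepest falls in KO cells were also Slc6a9, at -3.36 ± 0.10 in KO and -1.78 ± 0.10 in WT cells, and Slc1a4. The falls of Slc6a9, Slc1a4, Slc16a12, Slc7a4, Slc5a3 and Slc37a2 differed between the genotypes by the test of the difference. For Slc5a3 that call was lost under 8 of the alternatives run. The falls of Slc6a12 were called different without replicate 4 of WT cells with LPS (-0.28, limma adjusted p = 3.5e-05) and not with it. In all, 39 members rose and 67 fell in both genotypes. How many of all genes did so was not computed, so these 2 counts do not set the members apart.

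The LPS response of the KO minus that of WT was positive for 28 members (16%, against 10.2% of all genes tested) and negative for 23 (13.1%, against 10.4%). Without replicate 4 of WT cells with LPS the counts were 40 and 46, against 19% and 19.9% of all genes. In the amino acid class 4 responses were higher and 8 lower in the KO, and 4 and 15 without that library. In the organic ion class 5 were higher and 0 lower. Without that library Slc17a5 (-0.33, limma adjusted p = 0.0042) and Slc27a1 (-0.18, limma adjusted p = 0.0051) were called lower, and Slc16a6 was added as higher. The negative differences were led by Slc1a4 (-2.15 ± 0.16, adjusted p = 1.5e-07), Slc6a4 (-2.15 ± 0.31, adjusted p = 0.00011), Slc6a9 (-1.58 ± 0.14, adjusted p = 9.9e-07) and Slc46a3 (-1.48 ± 0.28, adjusted p = 0.0013). Slc1a4, Slc6a9 and Slc46a3 each fell further in the KO from a higher untreated level, as with Slc1a4 at -2.88 ± 0.12 in KO and -0.73 ± 0.12 in WT cells.

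**Figure D3:**
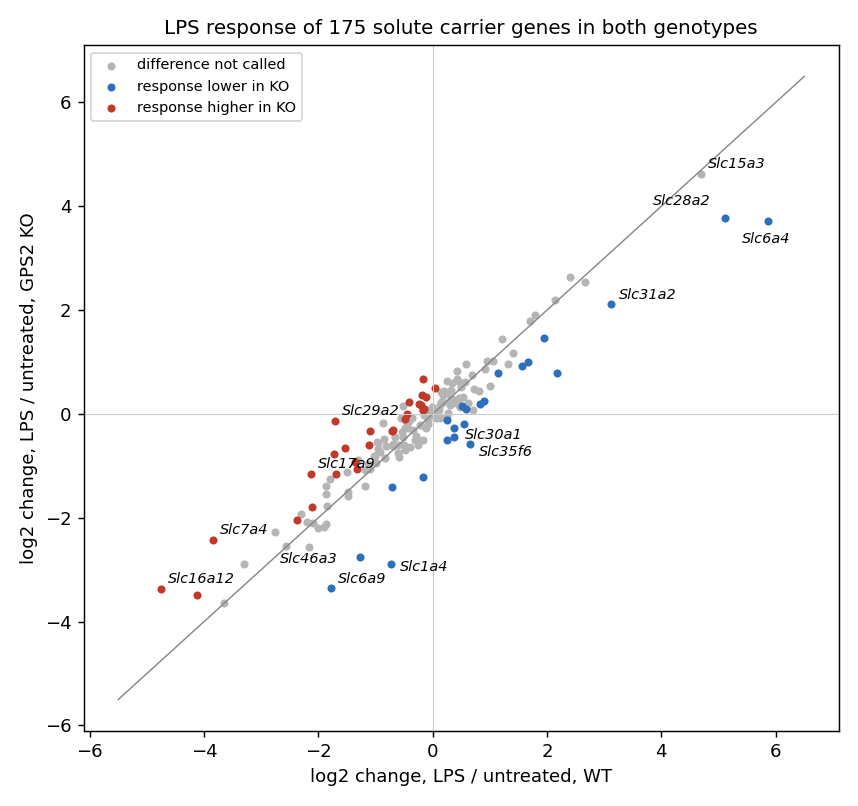
Log2 change with LPS in GPS2 KO cells (vertical axis) against that in WT cells (horizontal axis) for the 175 solute carrier genes, with the line of equal change and the genes whose responses differed by the test in colour. Slc15a3 lies on the line, while Slc1a4, Slc6a9 and Slc46a3 lie below it and Slc29a2, Slc7a4 and Slc16a12 above it.

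The positive differences were led by Slc29a2 (1.58 ± 0.24, adjusted p = 0.00021), an equilibrative nucleoside transporter, Slc7a4 (1.42 ± 0.26, adjusted p = 0.00083), Slc16a12 (1.40 ± 0.24, adjusted p = 0.00051) and the vesicular nucleotide transporter Slc17a9 (0.98 ± 0.22, adjusted p = 0.0042). Slc29a2 read 48.2, 56.3, 57.2 and 55.5 in KO cells with LPS, against 52.8, 64.6, 53.3 and 68.9 in untreated KO cells, which overlapped. In WT cells it read 28.4, 30.6, 29.7 and 15.8 with LPS, against 81.7, 83.9, 98.3 and 77.4 untreated, with all LPS libraries below all untreated ones (-1.71 ± 0.17, adjusted p = 2.5e-07). The related nucleoside transporter Slc29a1 fell by 0.92 ± 0.05 in KO cells and fell by 1.36 ± 0.05 in WT cells.

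Some members moved in opposite directions. Slc30a1, the zinc exporter of the plasma membrane, read 206, 193, 176 and 200 in KO cells with LPS, against 251, 262, 278 and 264 in untreated KO cells (-0.44 ± 0.07, adjusted p = 3e-05). In WT cells it read 269, 264.8, 252 and 271 with LPS, against 188, 226, 204 and 198 untreated (0.37 ± 0.07, adjusted p = 0.00016). The groups did not overlap in either genotype, and without the TMM factor the WT change was -0.09, of the other sign. With Slc30a1, Slc35f6 and Slc38a9 also rose in WT and fell in KO cells, though the WT change of Slc38a9 was -0.21 without the TMM factor. The 4 that fell in WT and rose in KO cells were Slc16a10, Slc7a6, Slc16a13 and Slc39a13, and without the TMM factor Slc16a10 and Slc7a6 had negative changes in the KO. The KO rises of Slc16a13 (0.23) and Slc39a13 (0.67) were not followed in that setting, in which the median of all genes shifted by -0.389. So the sign of the Slc16a13 change without the factor is not known here. The WT fall of Slc39a13 was -0.15 without replicate 4 of WT cells with LPS (adjusted p = 0.052), which ended the call. Without that library 6 members rose in WT and fell in KO cells, Slc1a5 and Slc7a1 among those added. The rise of Slc16a10 in the KO lost its call without KO replicate 3 or 4 with LPS. Between genotypes, Slc30a1 and Slc6a9 were higher in the KO untreated and lower with LPS. The 6 with the reverse pattern were Slc15a4, Slc29a1, Slc29a2, Slc16a13, Slc30a5 and Slc39a13. Of these, Slc16a13, Slc30a5 and Slc39a13 were named after their values were seen. The shares of all genes with any of these opposite patterns were not computed. The counts of both patterns between genotypes depended on replicate 4 of WT cells with LPS. Without it 9 members were higher in the KO untreated and lower with LPS, with Slc7a7, Slc11a2, Slc25a37, Slc31a1, Slc35f6, Slc38a9 and Slc9a8 added, and 10 had the reverse pattern, with Slc16a12, Slc19a1, Slc26a10 and Slc35g1 added. The untreated call of Slc29a2 was lost without KO replicate 1 or 3 or WT replicate 1, 2 or 3, and the LPS call of Slc29a1 without KO replicate 2 or 3 or WT replicate 3. The untreated call of Slc15a4 (-0.16 ± 0.06, adjusted p = 0.042), a carrier of endolysosomes that supports Toll-like receptor signalling, was lost under 10 of the alternatives run, among them the omission of KO replicate 1, 2 or 3 or WT replicate 1, 3 or 4.

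Another 12 members were called in none of the 4 comparisons between pairs of groups by limma with Benjamini-Hochberg adjustment, among them Slc25a11, Slc25a17, Slc25a26, Slc27a4, Slc35a3, Slc35a4, Slc35e2, Slc39a9, Slc39a10, Slc41a1 and Slc41a2, named for that result. They ranged between 24.7 and 658 per kilobase. In contrast 36 members were called in all 4. Without replicate 4 of WT cells with LPS, 5 of the 12 were still called in none, Slc25a11 and Slc41a1 were called in all 4, and 66 members were called in all 4, of which 34 are among those 36. The shares of all genes called in none or in all 4 were not computed, so these counts are no result about the members. In the authors' deposited table, the count of members called was 59 higher and 40 lower for KO against WT untreated, 37 and 21 for KO against WT with LPS, and 52 and 71 for LPS in WT cells. Called in the same direction here and in the authors' deposited table were 75, 58 and 123 members, and 0 were called in opposite directions. Called here only were 2, 32 and 19 members, and by the authors only 24, 0 and 0. No share of all genes was computed for these counts, so they compare 2 sets of calls and do not set the members apart.

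Other genes of transport give the surroundings of these changes. The zinc list, the metallothioneins Mt1 and Mt2 and the zinc sensor Mtf1, rose in all 3 of 3 genes with LPS in each genotype. Mt2 read 6037, 6159, 5964 and 5873 in KO cells with LPS, against 15770, 17310, 18650 and 41530 in WT cells with LPS (-1.84 ± 0.21, adjusted p = 4.2e-06). Mt1 read 4485 to 4762 in KO cells with LPS, against 8949, 9720, 10290 and 24720 in WT cells with LPS (-1.38 ± 0.22, adjusted p = 0.00013). Both were below all WT libraries, and replicate 4 was the highest. Of 6 iron genes, 4 were higher and 0 lower in the KO in each arm, but not the same 4. Tfrc, Fth1 and Ftl1 were higher in both arms, Hmox1 only untreated and Steap3 only with LPS. The transferrin receptor Tfrc averaged 2224 ± 59.0 in untreated KO cells and 1343 ± 75.1 in untreated WT cells. With LPS 3 iron genes rose and 1 fell in KO cells, and 4 rose and 1 fell in WT cells. Of the 9 genes of lysosomal amino acid sensing, 4 were higher and 1 lower in the KO untreated, and 0 higher and 1 lower with LPS. LPS raised 1 and lowered 5 of them in KO cells and raised 5 and lowered 1 in WT cells. Of 5 sodium pump and partner genes in the table, 1 was higher and 1 lower in the KO untreated, and 0 and 1 with LPS. Of 7 mitochondrial channels and carriers outside the Slc names, 0 were called in the KO untreated (limma, Benjamini-Hochberg) and 1 was higher with LPS. Of 7 ABC transporters, 2 were higher and 1 lower in the KO untreated, and 4 and 0 with LPS. Of the 7 solute carriers left out by the rule, 3 were higher and 3 lower in the KO untreated, and 2 and 3 with LPS. In untreated cells the 3 higher were Slc7a11, Slc3a2 and Slc7a5, and the 3 lower were Slc7a2, Slc2a1 and Slc16a3. Among all genes tested, 18% were higher and 17.5% lower in the KO untreated, and 22.1% and 22.1% with LPS.

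Promoter accessibility differed little. ATAC-seq gave 157 promoter sites, within 1 kb of the start, for 147 members, and the median KO minus control difference was -0.003 (log2). By limma, 4 sites were higher in KO cells (2.55%, against 2.15% of 11732 promoter sites) and 1 was lower (0.637%, against 4.16%). The copper gene Slc31a2 had 5.51, 5.33 and 5.49 (log2 signal) in KO cells, against 5.31, 5.20 and 5.00 in control cells (0.27 ± 0.08, adjusted p = 0.021). The lysosomal nucleoside transporter Slc29a3 had 6.2, 6.45 and 6.52 in KO cells, against 6.11, 5.98 and 6.28 in control cells (0.27 ± 0.08, adjusted p = 0.024), and its groups overlapped. Both genes were also called higher in untreated KO cells by RNA, although the RNA call of Slc29a3 was lost without KO replicate 1 or 3 or WT replicate 1 or 2. When each ATAC-seq library was left out in turn, 1 to 2 sites were higher and 0 to 1 lower. Slc5a3 (0.24 ± 0.08, adjusted p = 0.04) and the carnitine transporter Slc22a5 (0.25 ± 0.07, adjusted p = 0.022) were higher and Slc35c2 lower (-0.25 ± 0.07, adjusted p = 0.018), with no RNA call in untreated cells; the last 2 were named after their values were seen. Without replicate 4 of WT cells with LPS, Slc5a3 was called lower in untreated KO cells by RNA (-0.33, adjusted p = 6.9e-05), while its promoter site was higher. At the Slc1a4 promoter the level was 7.86 ± 0.06 in KO and 7.76 ± 0.04 in control cells (SD, n = 3 each; adjusted p = 0.45), and at Slc38a7 it was 6.93 ± 0.09 and 6.83 ± 0.10 (adjusted p = 0.47).

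In the ChIP-seq tables the 2 libraries of a group agreed near sampling noise, with a mean chi-square per site between 0.824 and 1.29. The highest, 1.29, was for a JunB group and lies above what sampling alone gives. The 2 libraries count as 1 sample, so differences have no test, and shares of sites past 2-fold are descriptions. Values are reads per 10000000 mapped reads per site. For JunB, 98 members had 115 promoter sites. In untreated cells 42 sites were past 2-fold higher in the KO (36.5%, against 36% of 7870 promoter sites) and 0 were lower (against 2.02%), with a median of 0.726 over the members' sites and 0.734 over all. With LPS 0 were past 2-fold higher (against 1%) and 1 was lower (against 0.661%). LPS against untreated gave 7 higher (against 5.17%) and 60 lower sites (against 50.6%) in KO cells, and 12 higher (against 6.95%) and 12 lower (against 14.2%) in WT cells. A share near that of all promoters is no result about the members.

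At single genes, JunB at the Slc1a4 promoter site 18 bases from the start read 24.1 and 22.9 in untreated KO cells, against 2.44 and 12.5 in untreated WT cells, and 10.5 and 12.9 in KO cells with LPS, against 10.3 and 14.3 in WT cells with LPS. Both untreated KO libraries were above the others. At the Slc7a7 promoter it read 36.2 and 27.95 in untreated KO cells, against 11.0 and 9.72 in untreated WT cells, and at Slc31a2 54.2 and 58.4 in untreated KO cells, against 43.9 and 47.3 in untreated WT cells. At Slc38a7, whose printed promoter holds an AP-1 match, JunB read 4.02 and 12.7 in untreated KO cells, against 4.88 and 9.72 in untreated WT cells, so the libraries overlapped. At Slc15a3, a site at -720 bases from the start read 72.3 and 40.7 in untreated KO cells, against 29.2 and 25.03 in untreated WT cells, and 89.8 and 78.8 in KO cells with LPS, against 68.2 and 73.5 in WT cells with LPS. PU.1 over the printed Slc15a3 promoter read 149.5 and 172 in untreated KO cells, against 150.1 and 156 in untreated WT cells, and 165 and 150.2 in KO cells with LPS, against 153 and 147 in WT cells with LPS, while its RNA rose with LPS.

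For PU.1, 82 members had 93 promoter sites, and few passed 2-fold: 1 for KO against WT untreated (1.08%, against 1.47% of 6686 promoter sites), 3 with LPS (3.23%, against 3.5%), 8 for LPS in KO cells (8.6%, against 8.85%) and 3 for LPS in WT cells (3.23%, against 3.92%). For MED1 with LPS, 0 of 130 sites passed (against 1.2%). For RNA polymerase II with LPS, 6 of 94 sites passed (6.38%, against 13.4%). The polymerase site near the glutamine carrier gene Slc38a1 read 1025 and 1036 in KO cells with LPS, against 496 and 464 in WT cells with LPS, and its RNA was higher in the KO there (0.56 ± 0.14, adjusted p = 0.0045). At Slc19a2 the polymerase read 108 and 132 in KO cells with LPS, against 188 and 191 in WT cells with LPS at 2 h, whereas its RNA at 6 h was higher in the KO. At Slc1a4 it read 46.04 and 74.4 in KO cells with LPS, against 90.6 and 88.0 in WT cells with LPS, and at Slc38a7 72.6 and 50.2, against 39.5 and 35.7.

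**Figure D4:**
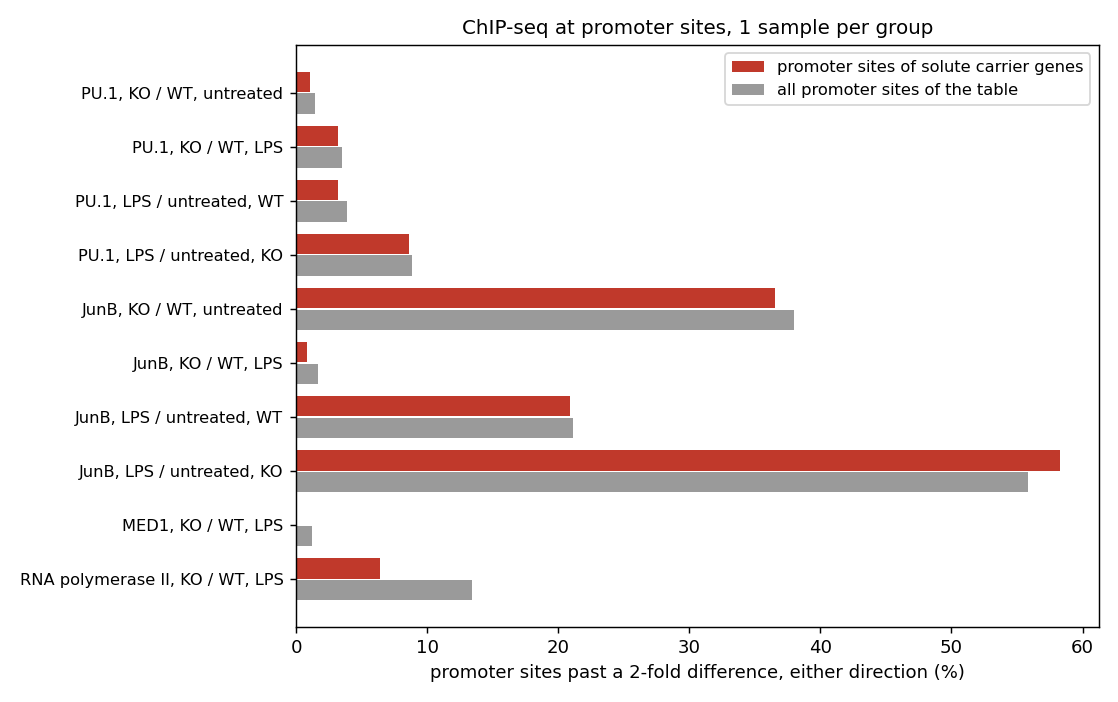
Share of promoter sites past a 2-fold difference in either direction (%, horizontal axis) for 4 ChIP-seq targets and their comparisons (vertical axis), for sites of solute carrier genes and for all promoter sites, 1 sample per group. The shares lie close together for PU.1 and JunB, and for RNA polymerase II they are 6.38% and 13.4%.

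All 175 members had a promoter window, and 14352 promoters of the table were read in all, on both strands. The E-box was in 18.3% of members' windows and 9.8% of all windows. AP-1 matches were in 6.29% and 5.07%, PU.1 in 13.1% and 13.8%, C/EBP-ATF in 1.14% and 0.634%, and the metal response motif in 56.6% and 58.7%. ISRE matches were in 4.57% and 7.71%, and NF-kB matches (GGGANNTTC) in 1.71% and 3.76%. By the RNA call, the ISRE was in 7 of the 58 members that rose with LPS in WT cells (12.1%) and in 1 of the 84 that fell (1.19%), Slc15a3 among those that rose. In KO cells it was in 4 of the 51 that rose (7.84%) and in 3 of the 76 that fell (3.95%). The metal response match was in 69% of the members that rose with LPS in WT cells and in 51.2% of those that fell. The PU.1 match was in 25% of the 48 members higher in untreated KO cells and in 20.7% of the 29 lower ones. Splits of the other motifs are not given here. The shares among all genes with the same calls were not computed, so these splits are no result about the members. A match describes letters in these windows and is no evidence of binding.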

How the data were processed

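The deposited RNA-seq values are reads per 10000000 mapped reads per gene, per the file headers, with decimal commas, and the deposited ChIP-seq values are reads per 10000000 mapped reads per site; the deposited ATAC-seq values are log2 signal per site. Per the submitters' processing notes, reads were mapped to mm9, and Bowtie2, BWA, HISAT2, HOMER, MACS2, DESeq2 and edgeR were used, with no versions given in the sources used here. For these values limma 3.58.1 in R 4.3.3 was run with a mean trend and robust moderation on log2(value divided by its TMM factor + 1), over the 11791 genes with 10 reads at median depth in at least 4 libraries and 15 reads in all, with 4 groups in 1 fit and Benjamini-Hochberg adjustment over all genes. The 8 columns of rescaled copies were not used. ATAC-seq sites were tested by limma over all 73206 sites. Totals per library were 12094940 to 22968591 mapped reads for RNA and 4038814.5 to 7108592.5 for ATAC-seq. The ChIP-seq totals were 8096466 to 16006472. The fits were tested on simulated data in which all groups had the same spread, so a library that stands apart was not covered.

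Named genes were up to 6 largest non-overlapping changes each way per comparison, 4 for the response difference, the top level per class and 27 textbook genes of macrophages. Values of some of the genes so named are not reported here. The members, classes and lists were chosen with earlier results of these data known. Exon overlaps come from gencode vM1, in which 168 of 175 members were found, and promoter sequences from the NCBIM37 genome. Same-numbered libraries of different groups were not paired by the labels. Alternatives tried were other scaling, filters, pseudocounts, fits, library weights and leaving out each library.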

Additional observations from a re-analysis of the deposited data

Results flagged for a closer look

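Some genes had 1 library far from the other 3 of its group, by the gap to the nearest library over the range of the group. Chance alone gives such a gap in about 1 in 20 groups. Levels are normalised reads per 10000000 mapped reads. Slc29a1 read 832 in replicate 4 of untreated KO cells, against 881 to 886 in the others. Slc11a2 read 440 in replicate 3 of untreated WT cells, against 422 to 422 in the others. Slc1a4 read 87.3 in replicate 4 of untreated WT cells, against 99.9 to 102 in the others. Slc1a5 read 3020 in replicate 2 of untreated WT cells, against 3110 to 3130 in the others. Slc7a7 read 35.9 in replicate 4 of untreated WT cells, against 46.9 to 48.2 in the others. Slc9b2 read 6.64 in replicate 3 of untreated WT cells, against 4.39 to 4.75 in the others. Slc12a9 read 455 in replicate 4 of KO cells with LPS, against 395 to 404 in the others. Slc38a9 read 144 in replicate 4 of KO cells with LPS, against 124 to 126 in the others. Slc39a14 read 2180 in replicate 2 of KO cells with LPS, against 2280 to 2300 in the others. Slc25a1 read 621 in replicate 2 of WT cells with LPS, against 708 to 723 in the others. In replicate 4 of WT cells with LPS, the library that stood apart over all genes, this held for Slc11a1 (1450, others 1840 to 1880), Slc1a4 (43, others 62.9 to 66), Slc1a5 (2740, others 3630 to 3660) and Slc25a3 (10600, others 5590 to 6440). It also held there for Slc25a5 (8370, others 5040 to 5610), Slc28a2 (116, others 214 to 231), Slc29a2 (15.8, others 28.4 to 30.6) and Slc2a6 (1030, others 1570 to 1610). It also held there for Slc35b1 (1070, others 834 to 870), Slc38a2 (2710, others 4050 to 4280), Slc7a6 (512, others 601 to 618) and Slc9a3r1 (202, others 246 to 247).

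The LPS response in KO cells minus that in WT cells, on the log2 scale, passed the limma test of the difference upwards for Slc29a2 (1.58), Slc7a4 (1.42), Slc16a12 (1.40) and Slc17a9 (0.98), and downwards for Slc1a4 (-2.15), Slc6a4 (-2.15), Slc6a9 (-1.58) and Slc46a3 (-1.48).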

How the results depend on the processing

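Of 226 named changes and 22 counts followed over 63 settings, 42 changes were no longer past the threshold in at least 1 setting, 195 times in all, and 12 reversed, all without the TMM factor. The 42 were 11 for KO against WT untreated, 10 with LPS, 6 for LPS in KO cells, 10 for LPS in WT cells and 5 for the difference between the LPS responses. The reversed ones for LPS in KO cells were Slc16a10 (-0.2083), Slc25a5 (-0.0871), Slc2a6 (-0.1331), Slc31a1 (-0.2344), Slc35b1 (-0.1497) and Slc7a6 (-0.1912). For LPS in WT cells they were Slc25a3 (-0.111), Slc30a1 (-0.0919), Slc35b1 (-0.1606), Slc38a9 (-0.2145), Slc39a7 (-0.1247) and Slc7a1 (-0.0894). Without that factor 26 members rose with LPS in KO cells and 24 in WT cells. With only the groups compared in the fit, 45 members were lower in untreated KO cells and 34 were higher in KO cells with LPS. With library weights, 47 were lower in untreated KO cells, 43 were lower in KO cells with LPS and 47 had a lower LPS response. The cause was not tested.

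Leaving out each library in turn gave 43 to 70 members higher and 19 to 44 lower in untreated KO cells, and 53 to 74 higher and 23 to 44 lower with LPS. It gave 45 to 62 rises and 72 to 84 falls with LPS in KO cells, 54 to 65 and 78 to 87 in WT cells, and 22 to 40 higher and 21 to 46 lower responses. The lowest untreated count, 19, came without WT replicate 3, and 44, 44 and 46 came without replicate 4 of WT cells with LPS. ATAC-seq sites were 1 to 2 higher and 0 to 1 lower, and 2 and 0 with no trend of the spread; within 500 bp 0 were lower. With 1 library of either group left out, sites past 2-fold were 2 to 5, 3 to 6, 12 to 12 and 4 to 7 for PU.1 (KO against WT untreated, with LPS, LPS in KO, LPS in WT), 43 to 48, 0 to 2, 61 to 65 and 24 to 32 for JunB, 0 to 1 for MED1 and 6 to 8 for RNA polymerase II. At 1.5-fold, PU.1 had 15, 11, 29 and 20, JunB 65, 18 and (LPS in WT) 64, MED1 5 and RNA polymerase II 19. Within 500 bp, PU.1 had 0 for LPS in WT, JunB 0 with LPS and RNA polymerase II 3.

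The replicate numbers did not pair the libraries (r -0.367 to 0.211 for the same number). With the number as a replicate block, 46 members were higher and 27 lower in untreated KO cells, and 59 and 25 with LPS. The planned edgeR test on recovered reads was not run. A limma fit with voom weights, chosen after seeing the data, gave 52 higher and 32 lower in untreated KO cells. ChIP-seq differences have no replicate check.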
